A study of Mus musculus with 6 samples.

Results

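A set of 10 genes of the spermatogonial stem cell niche was followed in mouse testis RNA: the ligand genes Gdnf, Kitl, Fgf2, Cxcl12, Csf1 and Wnt6, the germ cell receptor genes Gfra1, Ret and Kit, and Etv5, a target of the pathway. They were selected by gene symbol, and all 10 were found among the 55850 genes of the table. The libraries were made from whole testis, 3 labelled WT and 3 labelled cKO, with no treatment. The cKO samples are conditional knockouts for Srsf2, which encodes an RNA splicing factor of the SR protein family, and the series title places its loss in Sertoli cells. No source used here gives the Cre driver, the floxed part of the gene, or the strain and age of the mice. The labels do not state that each sample is a different animal. The p-values therefore reflect only sample-to-sample spread, which may be technical.

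Spermatogonial stem cells sit on the basement membrane of the seminiferous tubule, between Sertoli cells, the somatic cells that nurse germ cells, and the peritubular and interstitial cells outside. GDNF from Sertoli and peritubular cells binds the co-receptor GFRA1, and the complex activates the receptor tyrosine kinase RET on undifferentiated spermatogonia, which raises transcription factors such as ETV5 and keeps the cells renewing. KITL, also from Sertoli cells, acts on the receptor KIT of differentiating spermatogonia, so that GDNF and KITL serve opposite ends of the same step. FGF2, CXCL12, CSF1 and WNT6 are further signals to spermatogonia from Sertoli or stromal cells.

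None of the 10 genes passed the test over all genes. In cKO testis the mean levels of Gdnf and Wnt6 were 71.7% and 71.8% of their WT means, and those of Cxcl12 and Csf1 88.3% and 85.6%. Kitl and Fgf2 had higher means, at 119% and 112% of WT. The receptor genes Kit and Ret and the target Etv5 stood at 108%, 96.1% and 94.7% of WT, and Gfra1 at 151% on few reads.

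Differences were tested on log2(FPKM + 1) by limma, its trend option on, fitted on the 14238 genes with a mean of at least 1 FPKM and adjusted by Benjamini-Hochberg over all of them. FPKM divides the reads of a gene by its length and by a total for the library, so levels of different genes can be set side by side. Of the 10 genes, 8 passed the filter on low values and 2, Gfra1 and Ret, did not. By limma, 0 of the 8 had an adjusted p under 0.05, against 0.014% of all genes tested (0.00702% lower and 0.00702% higher), and by limma voom on recovered reads, which tested all 10, the number was also 0. At an unadjusted p under 0.05 there were 2, Gdnf and Wnt6, both lower, against 12.3% of all genes in either direction and 7.68% in the lower direction (4.65% higher). That number was 0 without WT replicate 3 and 3 without cKO replicate 1. It was 1 with cKO replicate 2 or 3 left out, 1 on the TPM scale and 1 with length and GC trends removed. Under quantile normalization it was 3, with Kitl added as higher (log2 difference 0.29). The split of all genes at that threshold was 662 higher and 1094 lower, and turned to 900 higher and 741 lower on the TPM scale.

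**Figure D1:**
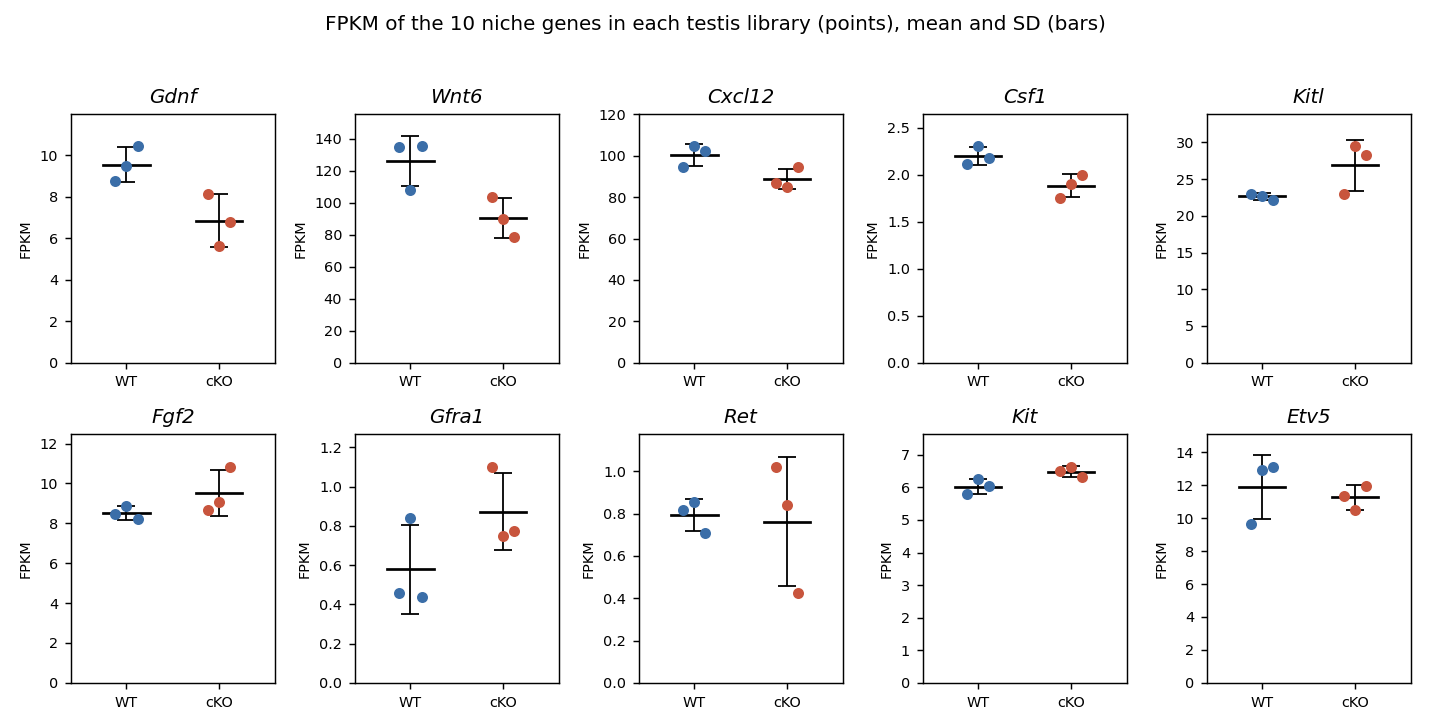
FPKM (vertical axes, from 0) of each of the 10 genes in the 3 WT and 3 cKO libraries. Points are libraries and black bars the mean and SD (n = 3); the groups are apart for Gdnf, Wnt6, Cxcl12 and Csf1, with cKO lower, and for Kit, with cKO higher, and overlap for the other 5 genes.

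Levels of the 10 genes ranged from 0.578 to 126 FPKM in WT means. In WT testis the order by FPKM was Wnt6, Cxcl12, Kitl, Etv5, Gdnf, Fgf2, Kit, Csf1, Ret and Gfra1. The ranges of the WT libraries overlapped for the neighbours Etv5 and Gdnf, Gdnf and Fgf2, and Ret and Gfra1, so these neighbours were not ordered beyond their spread. In cKO testis the ranges also overlapped for Wnt6 and Cxcl12, while those of Etv5 and Gdnf did not. Those of Gdnf and Fgf2 were apart in cKO as well, with Fgf2 the higher, at 8.69 to 10.8 against 5.62 to 8.15 FPKM. Gdnf and its receptors were measured at very different levels, with Gdnf at 9.54 FPKM, Ret at 0.793 FPKM and Gfra1 at 0.578 FPKM in WT.

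Libraries were of even depth, with 16070287 to 17281330 recovered reads. The share of reads from the 18S ribosomal RNA gene Rn18s-rs5 was 1.58 to 2.09% in WT and 0.727 to 0.835% in cKO libraries, and that of mitochondrial genes 1.66 to 1.98% and 2.39 to 2.97%. Haemoglobin genes took 0.213 to 0.431% in WT and 0.383 to 0.507% in cKO. By the mean chi-square per gene between recovered reads, WT replicate 1 was at 41.3 to 79.9 against each other library. Pairs without it reached 45.6, between WT replicate 2 and cKO replicate 2, so the ranges overlapped. The closest pair was WT replicate 2 and cKO replicate 1, at 13.3. Without WT replicate 1 the log2 differences were -0.49 for Gdnf, -0.42 for Wnt6, -0.22 for Cxcl12, -0.17 for Csf1, 0.24 for Kitl, 0.14 for Fgf2, 0.07 for Kit, -0.19 for Etv5, 0.20 for Gfra1 and -0.03 for Ret. Srsf2, the targeted gene, was at 127, 96.7 and 102 FPKM in WT and 74.0, 87.3 and 87.3 FPKM in cKO testis (limma adjusted p = 0.384). Other cells of the testis also express Srsf2, and its exons overlap those of Mettl23 and Mfsd11 on the opposite strand. In the tissue check, the 2 most abundant genes of each of 8 marker lists were Amh and Clu for Sertoli cells, Uchl1 and Mael for spermatogonia, Acta2 and Tpm2 for peritubular myoid cells, Col1a1 and Col3a1 for stroma, Cyp17a1 and Hsd3b1 for Leydig cells, Cdh5 and Eng for endothelium, Cma1 and Cpa3 for mast cells, and Hbb-bs and Hba-a1 for red blood cells. The spermatogonial marker Zbtb16 was among the low genes, with WT libraries at 0.299 ± 0.137 FPKM and cKO libraries at 0.206 ± 0.103 (SD, n = 3).

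Gdnf and Wnt6 were the ligand genes with the lowest p, and the 250 bases before their annotated starts (RefSeq, GRCm38.p6, plus strand in both) are shown because they differ in composition. Capitals mark matches, on either strand, to the TATA box, searched as TATAAA, or to the GC box, searched as GGGCGG. The CCAAT box by that name, the cAMP response element, searched as TGACGTCA, and an ETS core, searched as CCGGAA, gave no match in either window, and are held by 33.8%, 1.55% and 12.03% of the promoter windows. The Gdnf window is chr15:7809798-7810047 and the Wnt6 window chr1:74771642-74771891.
Gdnf: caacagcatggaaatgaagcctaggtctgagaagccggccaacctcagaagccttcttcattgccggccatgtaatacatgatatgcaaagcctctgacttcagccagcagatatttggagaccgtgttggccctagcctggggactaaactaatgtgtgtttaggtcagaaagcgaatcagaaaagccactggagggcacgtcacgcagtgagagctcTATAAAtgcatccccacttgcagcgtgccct
Wnt6: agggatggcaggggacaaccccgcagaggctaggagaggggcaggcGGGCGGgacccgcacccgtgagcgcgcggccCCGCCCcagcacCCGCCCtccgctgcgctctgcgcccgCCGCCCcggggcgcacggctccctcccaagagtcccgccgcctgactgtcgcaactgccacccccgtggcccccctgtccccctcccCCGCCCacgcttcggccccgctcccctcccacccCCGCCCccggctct
The Gdnf window had a GC content of 50.8% and a TATA box, which 12.4% of 32851 promoter windows of this length hold. The Wnt6 window had a GC content of 79.6% and GC boxes, which 32.7% of the windows hold. RefSeq windows matched 9 of the 10 genes. Gdnf has another annotated start further downstream, whose window had a GC content of 46.8%, a CCAAT box and no TATA box. The first start lies upstream of the GENCODE gene start given next. Which start is used in these testes was not measured.

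Gdnf, the growth factor of stem cell renewal, lies at chr15:7810846-7837575 of GRCm38 on the plus strand, with no other annotated gene over its exons. It was at 8.76, 9.45 and 10.4 FPKM in WT replicates 1 to 3 and at 8.15, 5.62 and 6.77 FPKM in cKO replicates 1 to 3. Every cKO library lay below every WT library, with cKO replicate 1 close to WT replicate 1 and cKO replicate 2 the lowest. The means were 9.54 ± 0.831 FPKM in WT and 6.85 ± 1.26 FPKM in cKO (SD, n = 3). The log2 difference was -0.44 (SE 0.14, 95% interval -0.77 to -0.10, limma adjusted p = 0.379), from 364 to 624 reads per library. Leaving out any 1 library gave -0.55 to -0.32.

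Wnt6, a WNT ligand gene, lies at chr1:74771892-74785322 on the plus strand and had the highest WT level of the 10 genes. It was at 135, 108 and 135 FPKM in the WT and at 103, 89.7 and 78.5 FPKM in the cKO libraries. The groups did not overlap, although WT replicate 2 and cKO replicate 1 were near each other. The means were 126 ± 15.6 FPKM in WT and 90.5 ± 12.4 FPKM in cKO (SD, n = 3). On the log2 scale the difference was -0.47 (SE 0.16, 95% interval -0.83 to -0.12, limma adjusted p = 0.379). Wnt6 has a GC-rich transcript, at 61.3% against a median of 49.8% over tested genes, and with each library's trends on gene length and GC content removed, a setting added after the data were seen, its log2 difference was -0.19.

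Cxcl12, the chemokine gene, lies at chr6:117168535-117181367 on the plus strand. It was at 94.6, 105 and 103 FPKM in WT and at 86.7, 85.1 and 94.5 FPKM in cKO. The WT replicate 1 and cKO replicate 3 values nearly met, and the groups did not overlap. Cxcl12 differed on the log2 scale by -0.18 (SE 0.12, 95% interval -0.45 to 0.09, limma adjusted p = 0.538), and -0.07 after quantile normalization.

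Csf1, the macrophage growth factor gene that has also been tied to stem cell renewal, lies at chr3:107741048-107760469 on the minus strand. It was at 2.12, 2.30 and 2.18 FPKM in WT and at 1.75, 1.90 and 1.996 FPKM in cKO. All cKO libraries were lower, by little. The fitted log2 difference was -0.15 (SE 0.13, 95% interval -0.45 to 0.15, limma adjusted p = 0.628), from 158 to 204 reads per library, and -0.05 with length and GC trends removed.

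Kitl, which encodes the ligand of KIT in membrane-bound and soluble forms, lies at chr10:100015630-100100416 on the plus strand. Its WT values were close together at 23.0, 22.7 and 22.2 FPKM, and its cKO values were 23.0, 29.5 and 28.3 FPKM. The groups overlapped, because cKO replicate 1 was at the WT level while the other cKO libraries were above it. On the log2 scale Kitl differed by 0.23 (SE 0.12, 95% interval -0.05 to 0.52, limma adjusted p = 0.467). Its transcript has the lowest GC content of the 10 genes, at 39.3%, and with length and GC trends removed the difference was 4.46e-05. The table holds 1 value per gene, so the forms were not told apart.

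Fgf2, the basic fibroblast growth factor gene, lies at chr3:37348346-37410108 on the plus strand. It was at 8.46, 8.89 and 8.20 FPKM in WT and at 8.69, 9.08 and 10.8 FPKM in cKO. The groups overlapped, and the highest value was that of cKO replicate 3. On the log2 scale Fgf2 differed by 0.14 (SE 0.12, 95% interval -0.13 to 0.41, limma adjusted p = 0.618), with a reversed sign, at -0.03, after removal of length and GC trends and 0.05 without cKO replicate 3. Its transcript has a GC content of 42.2%. Its exons overlap those of Nudt6 on the opposite strand, which was at 0.767 to 1.89 FPKM, and no source used here says whether counting used strand.

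**Figure D2:**
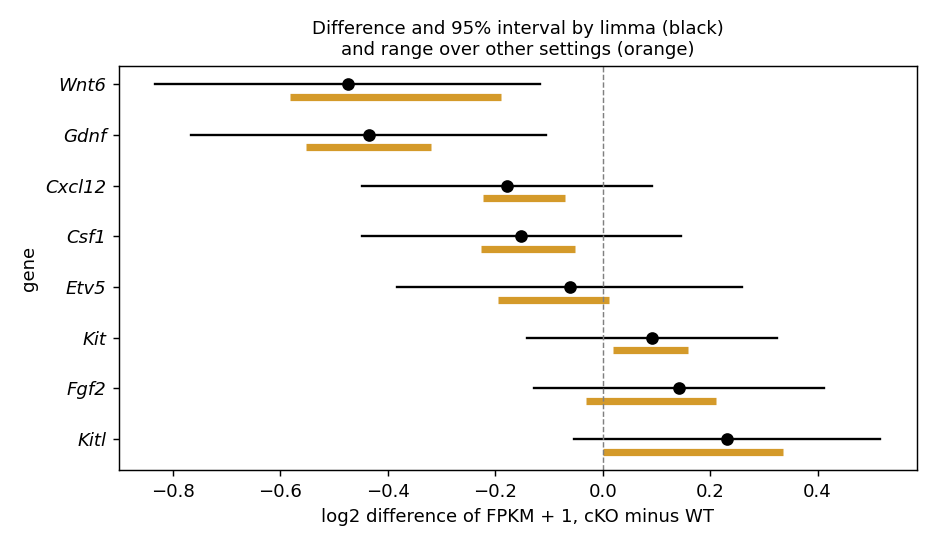
Log2 difference of FPKM + 1, cKO minus WT (horizontal axis), of the 8 genes tested. Black points and lines are the limma estimate and its 95% interval, and orange bars span 19 other settings (18 for Csf1); the intervals of Gdnf and Wnt6 lie below 0, before adjustment over all genes, and the other 6 span 0.

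The 4 genes lower without overlap, Gdnf, Wnt6, Cxcl12 and Csf1, compare with 9.92% of all genes tested that were lower without overlap, and Kit with 8.69% that were higher. In either direction the share over all genes was 18.6%. The genes were chosen with earlier results of these data known, so the count is a description. On the TPM scale Wnt6 alone was apart between the groups, and with length and GC trends removed Gdnf, Cxcl12 and Wnt6 were. Under quantile normalization Gdnf, Csf1 and Wnt6 were apart. Kit was not apart in any of these settings. After rescaling without ribosomal RNA, mitochondrial and haemoglobin genes, Gdnf, Csf1 and Wnt6 were lower without overlap and Kitl and Kit higher.

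Gfra1, the GDNF co-receptor gene, lies at chr19:58235604-58455909 on the minus strand. It was at 0.459, 0.838 and 0.437 FPKM in WT and at 1.10, 0.746 and 0.772 FPKM in cKO. The groups overlapped through WT replicate 2, which lay between the cKO values, while the other WT libraries were the lowest of all. These values rest on 40, 77 and 39 reads in WT and 103, 72 and 69 in cKO, and the exact 95% Poisson interval of the lowest count was 27.7 to 53.3 reads. Such intervals cover counting error only. The difference was 0.25 on the log2(FPKM + 1) scale, where the pseudocount exceeds most of the values (exact two-sided permutation p = 0.3), and 0.63 by limma voom on the recovered reads (adjusted p = 0.480).

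Ret, the kinase of the GDNF receptor complex, lies at chr6:118151745-118197718 on the minus strand. It was at 0.818, 0.854 and 0.707 FPKM in WT and at 1.02, 0.839 and 0.426 FPKM in cKO. The cKO libraries spanned the WT range on either side, and the number of reads went from 118 in cKO replicate 1 to 47 in cKO replicate 3. The difference was -0.04 (exact two-sided permutation p = 0.9), and 0.11 without cKO replicate 3.

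Kit, the receptor tyrosine kinase gene of differentiating spermatogonia that Leydig and mast cells also express, lies at chr5:75574916-75656722 on the plus strand. It was at 5.79, 6.24 and 6.03 FPKM in WT and 6.49, 6.64 and 6.31 FPKM in cKO. Every cKO library was above every WT library, by as little as the gap between 6.24 and 6.31 FPKM. On the log2 scale Kit differed by 0.09 (SE 0.10, 95% interval -0.14 to 0.32, limma adjusted p = 0.714), and 0.02 with length and GC trends removed. The summed level of the 8 mast cell markers was 9.89 to 14.1 FPKM in WT and 5.04 to 14.1 FPKM in cKO libraries. All 4 of them that passed the filter had a negative log2 difference, and the part of mast cells in the Kit values was not tested.

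Etv5, an ETS factor gene raised by GDNF in spermatogonia and also expressed by Sertoli cells, lies at chr16:22381309-22439719 on the minus strand. It was at 9.62, 12.9 and 13.1 FPKM in WT and at 11.3, 10.5 and 11.96 FPKM in cKO. The cKO values fell inside the WT range, whose low end was WT replicate 1. On the log2 scale Etv5 differed by -0.06 (SE 0.14, 95% interval -0.38 to 0.26, limma adjusted p = 0.862), -0.19 without WT replicate 1 and 0.01 without WT replicate 3.

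Ligand and receptor were next compared within each library, as the log2 ratio of FPKM + 1, for 6 pairs. With 3 libraries against 3 the exact permutation test cannot go below 0.1, so no ratio could pass. The Gdnf to Gfra1 ratio was 2.74, 2.51 and 2.99 in WT and 2.12, 1.92 and 2.13 in cKO. All cKO ratios were below all WT ratios, with a difference of -0.69 (exact two-sided permutation p = 0.1, adjusted over the 6 ratios 0.30). With a pseudocount of 0.1 the difference was -1.04, so its size depends on how the low Gfra1 values are treated. The Gdnf to Ret ratio overlapped between the groups, with a difference of -0.40 (exact permutation p = 0.2, adjusted 0.30), -0.24 without cKO replicate 2 and -0.54 when cKO replicate 3 was left out.

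The Kitl to Kit ratio, the pair of the differentiating step, was 1.82, 1.71 and 1.72 in WT and 1.68, 1.996 and 2.002 in cKO. The groups overlapped through cKO replicate 1. The difference was 0.14 (exact permutation p = 0.4, adjusted 0.40) and -0.02 with length and GC trends removed. It was 0.25 without cKO replicate 1, and 0.09 without cKO replicate 2 or without cKO replicate 3. Fgf2 relative to Fgfr1, an FGF receptor gene, was -1.10, -1.19 and -1.11 in WT and -1.004, -0.59 and -0.65 in cKO, a difference of 0.38 without overlap (exact permutation p = 0.1, adjusted 0.30). The Fgfr1 level was 19.9 ± 1.42 FPKM in WT libraries and 16.7 ± 2.24 in cKO libraries (SD, n = 3), and the ratio difference was 0.11 with length and GC trends removed.

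Cxcl12 relative to Cxcr4, its signalling receptor gene, differed by -0.32 (exact permutation p = 0.2, adjusted 0.30). Cxcr4 was at 15.3 ± 1.34 and 16.9 ± 1.37 FPKM and Ackr3, the scavenging receptor gene, at 7.44 ± 0.474 and 7.26 ± 0.615 FPKM in WT and cKO (SD, n = 3). Csf1 relative to Csf1r differed by -0.22 (exact permutation p = 0.3, adjusted 0.36), by -0.11 without cKO replicate 1 and by -0.14 without WT replicate 1. Csf1r, which macrophages express strongly, had 2.86 ± 0.556 FPKM in WT libraries and 3.04 ± 0.430 in cKO libraries (SD, n = 3). Both ratios overlapped between the groups.

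**Figure D3:**
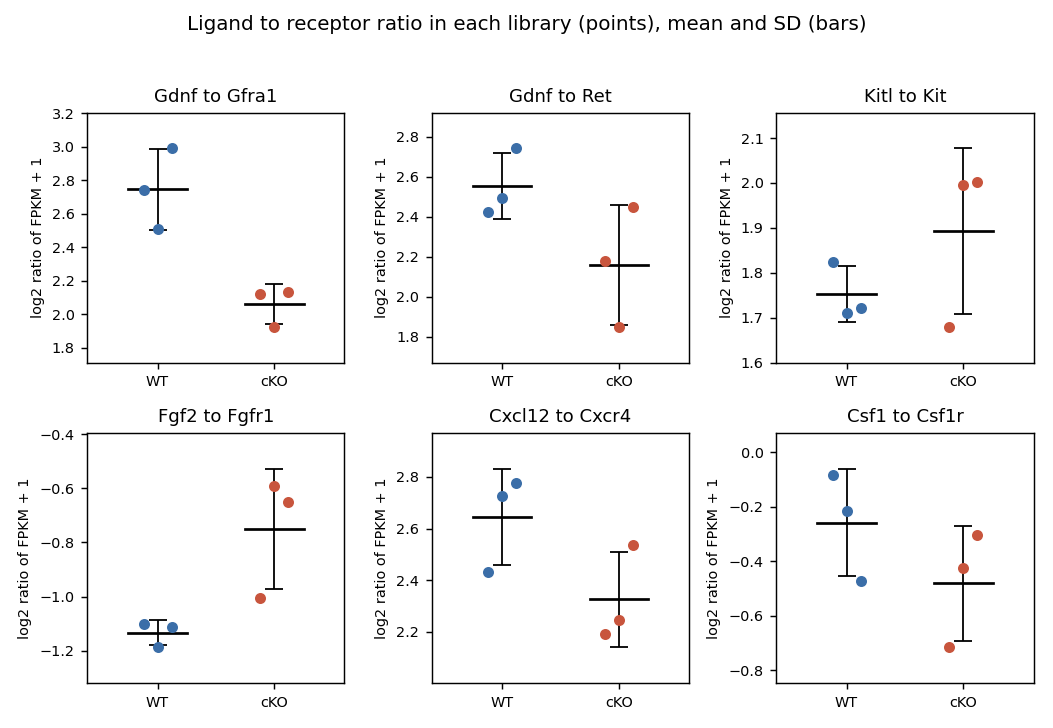
Log2 ratio of ligand FPKM + 1 to receptor FPKM + 1 (vertical axes, which do not start at 0) for 6 pairs. Points are libraries and bars the mean and SD (n = 3); the groups are apart for Gdnf to Gfra1, with cKO lower, and for Fgf2 to Fgfr1, with cKO higher.

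Sertoli marker transcripts were also at lower levels in cKO libraries, though 0 of them passed the adjusted threshold by limma or voom. The summed level of 22 Sertoli markers was 1899.9 to 2458 FPKM in WT and 1409 to 1625 FPKM in cKO, 19 of the 22 had a negative log2 difference, and 9 were lower without overlap and, the same number, at an unadjusted p under 0.05. Of all genes tested, 9.92% and 7.68% were lower by these criteria. By sign, 7234 of all 14238 genes tested had a positive difference and 7004 a negative one. Differences of some other marker lists were also mostly of 1 sign. Positive differences were found for 15 of 18 spermatogonial and 7 of 7 red blood cell markers (medians 0.19 and 0.69). Negative ones were found for 8 of 11 endothelial, 7 of 10 stromal and all 4 tested mast cell markers (medians -0.15, -0.15 and -0.37). Their part in the values of the niche genes was not tested. In whole testis, fewer Sertoli cells and less RNA per cell cannot be told apart. Each of 4 ligands was therefore set against the mean log2 level of these markers in the same library. Gdnf relative to the Sertoli mean was -1.67, -1.36 and -1.49 in WT and -1.39, -1.91 and -1.62 in cKO. The groups overlapped, and the difference was -0.13 (exact two-sided permutation p = 0.6, adjusted over 8 values 0.90). It ranged from -0.26, when cKO replicate 1 was left out, to 0.00125, when cKO replicate 2 was, and was -0.06 without WT replicate 2. Wnt6 relative to the Sertoli mean also overlapped, with a difference of -0.17 (exact permutation p = 0.3, adjusted 0.80), -0.28 without cKO replicate 1 and -0.09 when cKO replicate 3 was left out.

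Kitl and Fgf2 themselves differed by 0.23 and 0.14 on the log2 scale (limma adjusted p = 0.467 and 0.618). With length and GC trends removed, these differences were 4.46e-05 and -0.03. The Sertoli mean was itself lower without overlap, at most 4.64 in cKO against at least 4.75 in WT libraries (difference -0.30). A gene at the same level in all libraries would also be higher relative to it without overlap. The relative values therefore cannot separate a rise of Kitl or Fgf2 from the lower Sertoli mean. Kitl relative to the Sertoli mean was -0.38, -0.18 and -0.46 in WT and -3.96e-05, 0.29 and 0.29 in cKO, all cKO libraries being higher. The difference was 0.53 (exact permutation p = 0.1, the smallest possible, adjusted 0.40), between 0.47 and 0.63 when any 1 library was left out, and 0.21 with length and GC trends removed. Fgf2 relative to the Sertoli mean was -1.72, -1.44 and -1.80 in WT and -1.31, -1.31 and -1.02 in cKO, a difference of 0.44 without overlap (exact permutation p = 0.1, adjusted 0.40). With those trends removed it was 0.17 and the groups overlapped (exact permutation p = 0.3).

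Spermatogonial marker levels varied widely among WT libraries. The summed level of 20 spermatogonial markers was 373 to 730 FPKM in WT and 451 to 679 FPKM in cKO. Relative to the mean log2 level of the 18 of these markers that passed the filter, which leaves out Ret and Zbtb16, Gfra1 differed by 0.09, Ret by -0.21, Kit by -0.08 and Etv5 by -0.23, all with overlapping groups (exact permutation p = 0.9, 0.4, 0.9 and 0.7, adjusted 0.90, 0.80, 0.90 and 0.90). Etv5 relative to them was -0.94 in WT replicate 1 and 0.10 in WT replicate 3, a wider gap than between the group means. Single libraries turned some of these differences: that of Gfra1 was -0.14 without WT replicate 1 and -0.02 when cKO replicate 3 was left out, and that of Kit 0.07 without WT replicate 3. That of Etv5 was -0.54 without WT replicate 1 and -0.02 without WT replicate 3, and that of Ret -0.37 and -0.10 without the same libraries in turn.

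**Figure D4:**
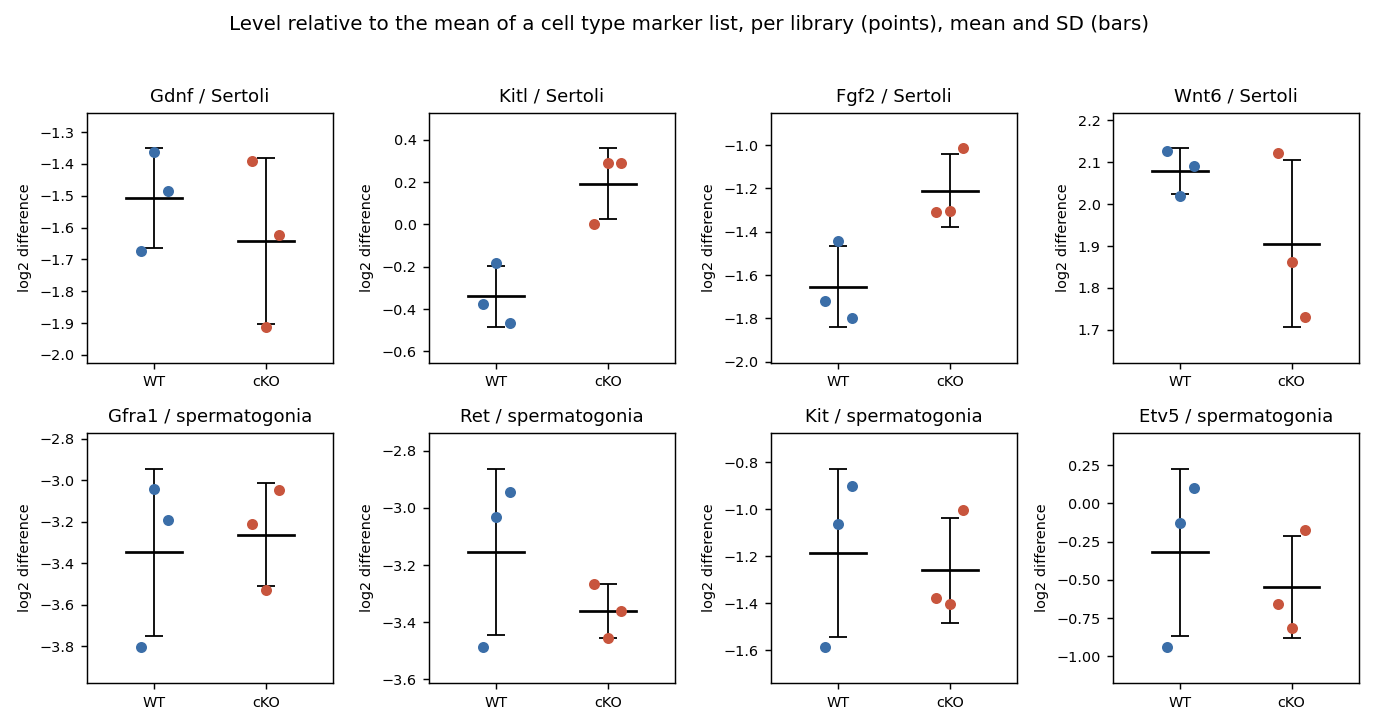
Log2 level of 8 genes minus the mean log2 level of the Sertoli (top) or spermatogonia (bottom) marker list in the same library; vertical axes do not start at 0. Points are libraries and bars the mean and SD (n = 3); Kitl and Fgf2 are apart from WT in all cKO libraries, and the other 6 overlap.

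The wider pathways around the 10 genes held no gene past the adjusted threshold by limma or by voom, over 8 lists. The median log2 difference of all genes tested was 0.00493. Among 21 tested genes of GDNF family and RET signalling, 1 was higher and 1 lower at an unadjusted p under 0.05, with a median of -0.14. Dok5, an adaptor of RET, had 2.25 ± 0.751 FPKM in WT libraries and 1.25 ± 0.190 in cKO libraries, and Nrtn, which encodes neurturin, at 18.5 ± 5.51 and 12.8 ± 0.951 FPKM (SD, n = 3). Gfra2, the neurturin co-receptor gene, was at 6.74 ± 0.964 and 5.998 ± 0.759 FPKM, above Gfra1 in every library.

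Of 16 spermatogonial genes listed as responsive to GDNF, 9 were tested, 7 lay below the filter, and 1 was lower at an unadjusted p under 0.05. That was Mycn, a MYC family gene, at 15.9 ± 1.47 FPKM in WT and 11.2 ± 0.371 FPKM in cKO (SD, n = 3), a log2 difference of -0.46 (limma adjusted p = 0.361). Foxo1 stood at 0.25 and Spry4, a feedback inhibitor gene of kinase signalling, at 0.27 on the log2 scale. The median of the list was -0.001. In KIT signalling 0 of 14 tested genes had an unadjusted p under 0.05, the median was 0.07, and Socs1, a cytokine signalling suppressor gene, had the lowest p at a log2 difference of -0.48, followed by Adam17, a protease gene, at 0.12 and Gab2 at 0.17.

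Of 15 tested genes of the FGF list 1 was lower at an unadjusted p under 0.05, and the median was -0.05. Fgfr3 was at 3.24 ± 0.530 FPKM in WT and 2.28 ± 0.338 FPKM in cKO, Fgf10 at 1.04 ± 0.262 and 1.58 ± 0.160, and Fgfr2 at 6.54 ± 1.10 and 7.98 ± 0.124 (SD, n = 3). Of 6 chemokine partners 1 was higher, Sec23a, a coat protein gene of secretory vesicles, at a log2 difference of 0.37 (limma adjusted p = 0.389), and Dpp4, whose enzyme cleaves CXCL12, stood at 0.14. Of 2 tested colony-stimulating factor partners 0 had an unadjusted p under 0.05, with Csf2ra at -0.14, and 4 others lay below the filter.

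In the WNT list, the pathway list with the most genes tested, 2 of 22 were higher and 3 lower at an unadjusted p under 0.05, against 4.65% and 7.68% of all genes, with a median of -0.05. Wnt5b, another WNT ligand gene, was at 11.9 ± 0.747 FPKM in WT and 7.58 ± 0.990 FPKM in cKO (SD, n = 3), a log2 difference of -0.59 (SE 0.12, limma adjusted p = 0.360). Rspo1, an enhancer of WNT signalling, stood at -0.39, and Lef1, a nuclear effector of the pathway, at 0.36. Among 19 other tested niche signals 1 was higher and 2 lower. Inhbb, an activin and inhibin subunit gene, stood at -0.41, Vegfa, the vascular growth factor gene, at -0.27, and Erbb3, a neuregulin receptor gene, at 0.48. The lowest limma adjusted p of that list was 0.372.

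The genes whose profile over the 6 libraries lay nearest to a niche gene were found by the root mean square difference of centred log2(FPKM + 1) values among 12565 named genes (12564 where the gene itself was tested). Emilin3 was nearest to Gdnf at 0.024, Ccdc92b to Gfra1 at 0.045, Usp20 to Ret at 0.035, Cdk8 to Kitl at 0.017 and Wdr41 to Kit at 0.0090. These are given as a description, over 6 libraries that share their depth and composition with the niche genes.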

How the data were processed

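RNA of whole mouse testis was extracted with Trizol and made into libraries with a SMARTER mRNA-Seq kit, per the labels' protocols. The authors deposited 1 table with an FPKM value per gene and library, per the file headers. The builds GRCm38 and mm10 are named in the submitters' processing notes; the aligner, counter and strand setting: not given in the sources used here. FPKM times gene length gave whole multiples of 1 step per library for at least 99.988% of values (tolerance 0.01), so reads were recovered.

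Differences were tested with limma 3.58.1 (R 4.3.3) with a trend on log2(FPKM + 1), for genes with a mean of at least 1 FPKM, with Benjamini-Hochberg adjustment, a threshold of 0.05 and 95% intervals, and single values with exact two-sided permutation tests. The code was tested on simulated data. A voom fit on recovered reads used genes with at least 10 reads in 3 libraries. Alternatives covered pseudocounts, filters, scalings, a replicate block and each library left out; removal of length and GC trends was added after the data were seen. Gene positions are GRCm38 (GENCODE M21). The table's own positions were not used: only 1499 of 52081 shared IDs had the same start there, although the lengths of the 10 genes equal those of M21; the reason is not known.

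The 10 genes and all lists were chosen with earlier results of these data known. Named genes were the 10, their partner receptors, Srsf2, up to 3 tested genes with the lowest p per pathway list, the 2 most abundant per marker list and the nearest profiles, leaving out symbols starting Gm or holding Rik. Zbtb16, as a low marker, was named after its values were seen. Some genes that this rule names are not reported here.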

Additional observations from a re-analysis of the deposited data

How the results depend on the processing

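In each of 19 alternatives, 0 of the niche genes tested passed the adjusted threshold; 7 to 10 of the 10 were tested, all 10 without a filter and by voom. Over all genes the number called was 2, and became 1 with a pseudocount of 0.1 or 0.5, with a mean of at least 5 FPKM, on the TPM scale and by voom, and 0 without a filter, under the replicate block and without any 1 library (0 to 0). It was 3 under quantile normalization and with length and GC trends removed. Deviations of same-numbered libraries had correlations of mixed sign (r = 0.09, -0.33 and 0.39), against -0.45 to 0.35 between libraries of unlike number. Whether the replicate numbers pair the samples is not known, because so few values, from groups of 3, cannot decide it. With length and GC trends removed, the sign reversed for Fgf2 (-0.032), the Kitl to Kit ratio (-0.0183) and Wnt6 relative to Sertoli markers (0.0161); the cause was not tested. Leaving out 1 library gave -0.14 to 0.24 for Gfra1, -0.276 to 0.0655 for Kit (both relative to spermatogonial markers), -0.26 to 0.00125 for Gdnf relative to Sertoli markers, -0.195 to 0.0108 for Etv5 and -0.15 to 0.11 for Ret. Gfra1 and Ret rest on 39 to 118 reads per library, which limits their precision.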
